A study of Rattus norvegicus with 4 samples.

Results

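The 5 genes described here encode beta-actin (Actb) and 4 small proteins that bind or turn over actin: the monomer-sequestering thymosins Tmsb4x and Tmsb10, the monomer-binding profilin Pfn1 and the filament-severing cofilin Cfl1. They were chosen by name from the gene names of the array files, with their brightness and their ratios to the control siRNA on these arrays already known. They had 6 probes and 15 spots, of 41012 gene probes and 43379 gene spots on each array, and all 5 genes were among the 25525 genes that passed the filter on dim probes. Actb had 2 probes, 1 of them printed in 10 spots, and each of the other genes had 1 probe in 1 spot.

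The study asked what the TGF-beta co-receptor endoglin does in rat hepatic stellate cells, the retinoid-storing pericytes of the liver that turn into contractile, matrix-making myofibroblasts in fibrosis. On each of 4 whole-genome arrays, Cy5 marked the RNA of either untreated cells or cells transfected with an siRNA against endoglin, and Cy3 marked the RNA of cells transfected with a control siRNA. Each group had 2 arrays, 1 with cells of 1 animal and 1 with cells of a pool of 3 animals. The strain, sex and age of the rats, the time in culture and the time after transfection were not given in the labels, nor was it stated whether the single animal was also in the pool or whether arrays shared a control RNA.

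Actin in cells cycles between free monomers and filaments. Thymosins hold monomers back from the filament, profilin delivers them to growing ends, and cofilin severs old filaments and returns their subunits to the monomer pool. When stellate cells become myofibroblasts they build actin stress fibres, and the size of the monomer pool also governs the cofactors of serum response factor (SRF), a transcription factor that binds CArG boxes in the promoters of many actin cytoskeleton genes.

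The probes lie, by the coordinates of the array files, at chr12:12079523-12079582 (10 spots) and chr12:12079638-12079821 (1 spot) for Actb, chr4:106530521-106530580 for Tmsb10, chr10:57545638-57546218 for Pfn1 and chr1:208290000-208290254 for Cfl1. The genome build of these coordinates was not given in the files, and the exon each probe matches was not determined here. The Tmsb4x probe was placed at chr1:187264993-187265052, whereas RefSeq places the Tmsb4x gene on chromosome X. This probe may therefore read transcripts of a near-identical copy, and its values are uncertain to that extent.

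Shown are the promoters of Tmsb4x (ratios above 0 on every array), Pfn1 (below 0 on every array) and Actg1, the second cytoplasmic actin. Of the 5 promoters searched, only that of Actg1 held a CArG box. The Actb promoter was not searched, because Actb had no entry among the RefSeq promoters used. Each line gives the 150 bases before the start of the gene in RefSeq, assembly GRCr8, 5′ to 3′ on the gene's strand, at chrX:30761461-30761610 (plus strand), chr10:55866588-55866737 (minus strand) and chr10:106120952-106121101 (minus strand). Capitals mark the CArG box.
Tmsb4x: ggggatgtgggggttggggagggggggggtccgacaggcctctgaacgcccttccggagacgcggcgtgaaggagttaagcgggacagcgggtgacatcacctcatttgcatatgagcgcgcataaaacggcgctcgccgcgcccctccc
Pfn1: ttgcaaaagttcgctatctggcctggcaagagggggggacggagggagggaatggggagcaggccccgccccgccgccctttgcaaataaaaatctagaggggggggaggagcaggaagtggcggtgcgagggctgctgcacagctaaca
Actg1: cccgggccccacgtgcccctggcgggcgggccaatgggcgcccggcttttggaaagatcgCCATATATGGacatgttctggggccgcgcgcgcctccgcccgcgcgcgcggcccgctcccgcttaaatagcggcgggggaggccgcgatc
The CArG box of Actg1, CCATATATGG, began 90 bases before the start. Both strands of 250 bases before the start were searched. No CArG box was found in the windows of Tmsb4x, Tmsb10, Pfn1 or Cfl1, and 1.5% of 33469 RefSeq promoters held one. The Tmsb10 window held TATAA 29 bases before the start, a motif found in 24% of promoters, and Tmsb4x, Pfn1 and Cfl1 had none. The motif GGGCGG was found 3 times in the Tmsb10 window, 2 times each in those of Pfn1 and Cfl1 and 0 times in that of Tmsb4x, against 30.5% of promoters with at least 1 match.

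Endoglin itself was 5.29-fold lower after its siRNA than after the control siRNA (log2 ratio -2.40 ± 0.26, SE, n = 2; adjusted p = 0.00522 in limma), with log2 ratios of -3.08 for 1 animal and -1.72 for the pool. The ratios of untreated cells were -0.36 and -0.42. Endoglin siRNA minus untreated, endoglin differed by -2.02 ± 0.37 (SE, n = 2 each), which did not pass (adjusted p = 0.182 in limma). Directions follow the dyes given in the labels. The deposited value table has the opposite sign on both untreated arrays, and the sources used here give no reason. The share of gene spots well above background was 65.7% to 93.3% for Cy5 and 61.9% to 87.2% for Cy3, and 0 spots were saturated. All 12 stellate cell markers fixed for the check were well enough above background to be tested. Their summed Cy5 signal was 1014453 and 1140877 in untreated cells and 1067553 and 938896 after endoglin siRNA, against 132788 and 60064, and 77851 and 16383, for 13 macrophage and leukocyte markers (1 animal and pool in each pair). The sums were at most 7458 for the tested endothelial, 4631 for portal fibroblast and mesothelial, 3277 for cholangiocyte and 1957 for hepatocyte markers. Sums over different probes do not measure the shares of RNA or of cells.

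The 6 probes were not equally bright. Brightness is given as the background-uncorrected scanner signal and its rank among the 41012 gene probes of an array; signals of different probes are not compared as RNA levels. The 1-spot probe of Actb, the main structural actin of non-muscle cells, had Cy5 signals of 297165 to 406083 and ranked between 2 and 21 from the top. Tmsb4x ranked between 16 and 21 in Cy5 (278698 to 320104) but between 40 and 190 in Cy3 (29964 to 43986), so its place was higher in the dye of the untreated and endoglin siRNA cells than in that of the control siRNA cells. Tmsb10 (Cy5 signals of 47905 to 52464) and Pfn1 (30138 to 46836) lay at the 98.2 to 98.53 and 97.19 to 98.33 percentiles. The Cfl1 probe was far dimmer, at 4157 to 6149 and the 87.94 to 91.11 percentile, with 3649 to 4945 as its ranks from the top. Since brightness was known when the genes were chosen, these ranks are a description of the probes.

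The members did not share 1 direction against the control siRNA. Tmsb4x and Actb had log2 ratios above 0 on all 4 arrays, Pfn1 and Cfl1 had ratios below 0 on all 4 arrays, and Tmsb10 lay near 0. Among all genes 18.5% were above 0 on all 4 arrays and 15.4% below. Since the ratios served to choose the genes, they are described without a test. No dye swap was made, so a difference between the dyes and a difference from the control siRNA cannot be told apart in these ratios.

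**Figure D1:**
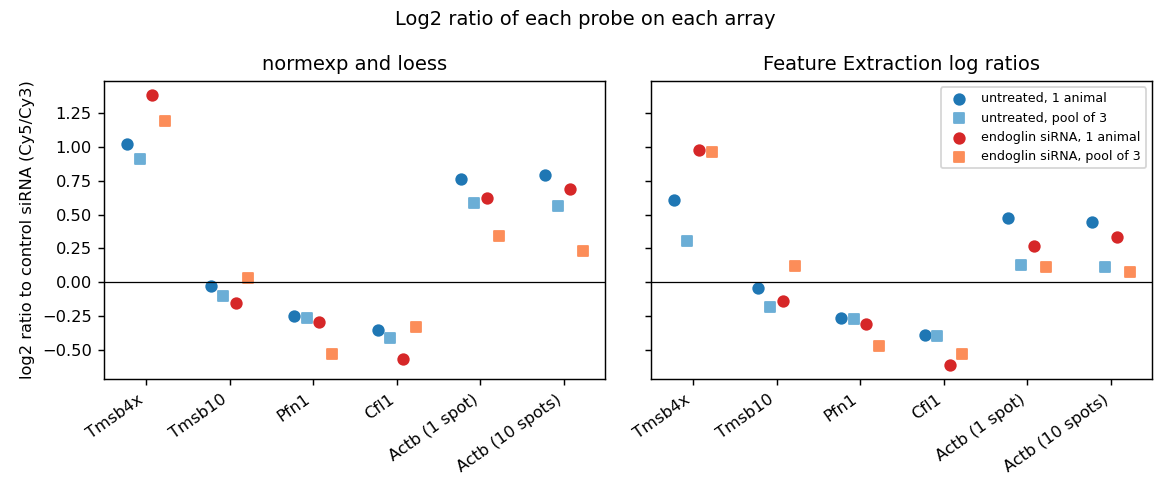
Log2 ratio to the control siRNA (Cy5 over Cy3, y axis) of each of the 6 probes (x axis) on each of the 4 arrays, after normexp and loess (left) and as Feature Extraction log ratios (right). Each point is 1 array; Tmsb4x and Actb lie above 0 and Pfn1 and Cfl1 below 0 on all 4 arrays in both panels.

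Tmsb4x, the main monomer-sequestering thymosin, had log2 ratios of 1.02 (1 animal) and 0.91 (pool) in untreated cells and 1.39 and 1.20 after endoglin siRNA. Every value was above 0, and both endoglin siRNA values lay above both untreated values. The mean ratio to the control siRNA was 1.96-fold in untreated cells (log2 0.97 ± 0.07, SE, n = 2) and 2.45-fold after endoglin siRNA (1.29 ± 0.07, SE, n = 2).

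Its paralog Tmsb10, a thymosin with the same monomer-binding role, had log2 ratios of -0.03 and -0.10 in untreated cells and -0.16 and 0.03 after endoglin siRNA. The groups overlapped, and both means were -0.06 ± 0.07 (SE, n = 2). The 2 thymosins thus differed in their ratio to the control siRNA on every array.

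Pfn1, the ubiquitous profilin, had log2 ratios of -0.25 and -0.27 in untreated cells and -0.29 and -0.53 after endoglin siRNA. All 4 values were below 0, with the endoglin siRNA pool lowest. The means were -0.26 ± 0.07 and -0.41 ± 0.07 (SE, n = 2 each), or 1.19-fold and 1.33-fold lower than the control siRNA.

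Cfl1, the non-muscle cofilin, had log2 ratios of -0.35 and -0.42 in untreated cells and -0.57 and -0.33 after endoglin siRNA. All 4 were below 0, and the groups overlapped in this processing. The overlap came from the endoglin siRNA pool value and depended on the processing. Without background correction that value was -0.50, against -0.36 and -0.39 in untreated cells. With a loess span of 0.1 it was -0.42, against -0.35 and -0.36. With Feature Extraction log ratios it was -0.53, against -0.40 and -0.40. In the main processing 11.6% of all genes did not overlap in this direction. The means were -0.38 ± 0.07 and -0.45 ± 0.07 (SE, n = 2 each), or 1.31-fold and 1.36-fold lower.

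Actb had log2 ratios of 0.76 and 0.58 in untreated cells and 0.62 and 0.34 after endoglin siRNA by its 1-spot probe. The 10-spot probe gave 0.79, 0.56, 0.69 and 0.23 in the same order. Both probes had their lowest value on the endoglin siRNA pool array. The spots of 1 array varied little: the SD among the 8 to 10 spots used was between 0.066 and 0.091, smaller than the gap of 0.23 between the 2 untreated arrays by the same probe. Spots of 1 array share an RNA sample and are not replicates. By the brighter 1-spot probe the mean ratio was 1.59-fold in untreated cells (log2 0.67 ± 0.09, SE, n = 2) and 1.39-fold after endoglin siRNA (0.48 ± 0.09, SE, n = 2).

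**Figure D2:**
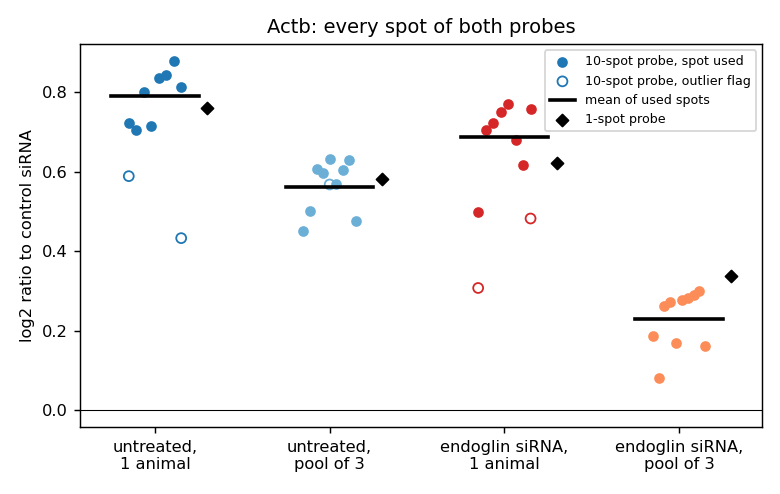
Log2 ratio to the control siRNA (y axis) of every Actb spot on each array (x axis). Filled circles are used spots of the 10-spot probe, open circles are spots with an outlier flag, lines are means of used spots and diamonds the 1-spot probe; all spots lie above 0, and the endoglin siRNA pool array is lowest at a mean of 0.23.

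Actb and Tmsb4x lay where the ratios of all genes rose with brightness. Before normalization the log2 ratio rose among the brightest genes on all 4 arrays, and loess did not flatten that rise fully. After loess, the 128 brightest genes (0.5% of those tested) had medians of 0.43 and 0.54 on the untreated arrays and 0.33 and 0.25 on the endoglin siRNA arrays, and 78.1% of them were above 0 on all 4 arrays. The brightest 10% had medians between -0.02 and 0.00. Averaged over the arrays of a group, the 128 genes had a median of 0.28 after endoglin siRNA and 0.45 in untreated cells. Actb lay 0.20 and 0.22 above these medians, and 35 and 29 of the 128 genes had a higher ratio than Actb. Tmsb4x lay 1.01 above the median after endoglin siRNA, with 0 of the 128 genes higher, and 0.51 above it in untreated cells, with 7 genes higher. Pfn1, Cfl1 and Tmsb10 were not among the 128.

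**Figure D3:**
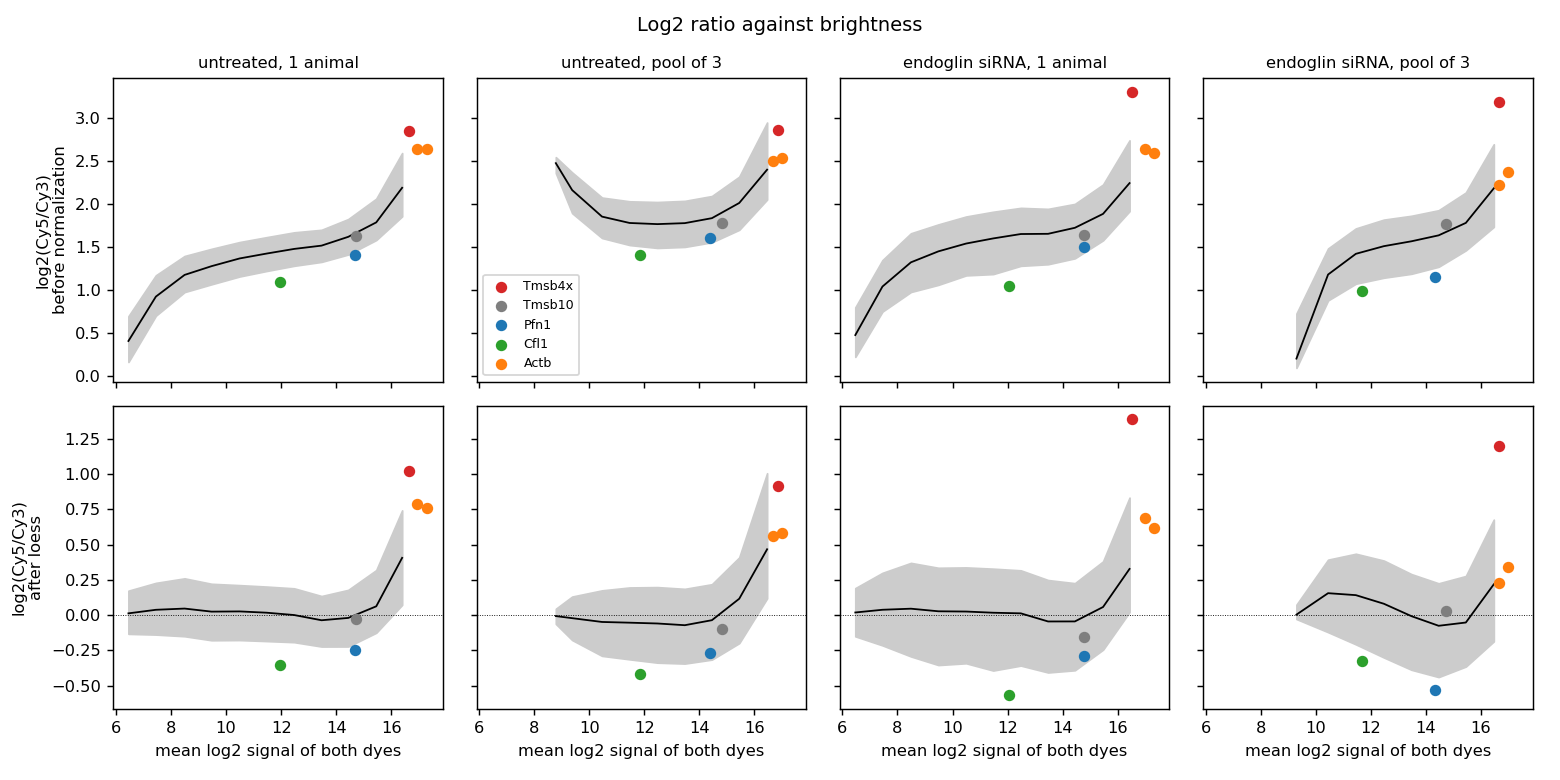
Log2 ratio of Cy5 over Cy3 (y axis) against the mean log2 signal of both dyes (x axis), before normalization (top) and after loess (bottom), for each array. The line is the median and the band the 10th to 90th percentile of all tested genes in bins of at least 20 genes; after loess the line turns up among the brightest genes, where Actb and Tmsb4x lie, while Pfn1 and Cfl1 lie below the line.

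With the log ratios of Feature Extraction, the scanner software, the 128 brightest genes had medians of only 0.07 to 0.15. Tmsb4x then had 0.61 (1 animal) and 0.30 (pool) in untreated cells and 0.98 and 0.96 after endoglin siRNA. Actb had 0.47 and 0.13, and 0.27 and 0.12, by its 1-spot probe. All values of these 2 genes stayed above 0, but the mean Actb ratio moved from 0.48 to 0.19 after endoglin siRNA and from 0.67 to 0.30 in untreated cells. Pfn1 (-0.26, -0.27, -0.31 and -0.47) and Cfl1 (-0.40, -0.40, -0.62 and -0.53) kept values below 0, in the order untreated 1 animal, untreated pool, endoglin siRNA 1 animal, endoglin siRNA pool. With median centring in place of loess, which leaves the trend with brightness in, Pfn1 and Cfl1 turned to 0.86 and 0.55 after endoglin siRNA.

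The scanner read bright spots at a low gain and scaled them up. Tmsb4x and Actb were read at low gain in both dyes, Tmsb10 and Pfn1 at low gain in Cy5 and at high gain in Cy3, and Cfl1 at high gain in both. Between 3.96% and 4.76% of gene spots were read at low gain in Cy5 and between 1.16% and 1.31% in Cy3. The part of the gain in the ratios was not tested.

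The comparison of endoglin siRNA with untreated cells sets 2 Cy5 samples against each other, so a dye effect common to all arrays cancels. Of all genes, 0.0862% (22) passed an adjusted p of 0.05 in limma, 0.0353% as higher and 0.0509% as lower after endoglin siRNA, and 2099 (8.22%) reached an unadjusted p under 0.05. Of the 5 members 0 passed in limma, and 1, Tmsb4x, had an unadjusted p under 0.05. The genes had been chosen as moving alike in both groups, a choice that favours a small difference, so a missed threshold carries no weight. Tmsb4x was higher after endoglin siRNA by 0.36 for 1 animal and 0.28 for the pool, with a mean of 0.32 ± 0.10 (SE; 95% interval 0.08 to 0.56; adjusted p = 0.422 in limma, n = 2 each). Its groups did not overlap, as was the case in this direction for 24.4% of all genes. Over the 16 other settings the difference stayed positive, between 0.23 and 1.46, and did not pass.

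The Actb difference, endoglin siRNA minus untreated, was -0.14 for 1 animal and -0.24 for the pool by its 1-spot probe, with a mean of -0.19 (95% interval -0.48 to 0.09; adjusted p = 0.788 in limma, n = 2 each). By this probe the sign of the pool difference depended on the processing. The difference became 0.064 without background correction, 0.079 with a loess span of 0.1 and 0.056 without 10 spots far below background in normexp. By the other Actb probe the pool difference stayed below 0 in these settings, at -0.063, -0.045 and -0.07. It was -0.33 by that probe in the main processing. For 1 animal the difference was below 0 by both probes in these settings. Over the 16 other settings the mean Actb difference lay between -0.33 and 0.95, and it was above 0 with scaling between arrays (0.13) and median centring (0.95). The median of the 128 brightest genes was also lower, at -0.17, in the main processing, and it too depended on the processing. On the pool arrays their medians were 0.54 (untreated) and 0.25 (endoglin siRNA) in the main processing. They were 0.43 and 0.40 without background correction, and 0.24 and 0.23 with a loess span of 0.1. Tmsb10 differed by 0.00 (95% interval -0.23 to 0.23), Pfn1 by -0.16 (-0.40 to 0.09) and Cfl1 by -0.06 (-0.31 to 0.18), with adjusted p-values of 0.999, 0.812 and 0.953 in limma (n = 2 each). Over the other settings these lay between -0.09 and 1.05 for Tmsb10, -0.73 and 0.88 for Pfn1, and -0.32 and 0.83 for Cfl1. The intervals of Actb, Tmsb10, Pfn1 and Cfl1 include 0 and do not show that the groups were alike.

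Tmsb4x and Cfl1 are also expressed by leukocytes, so the macrophage and leukocyte markers were read beside them. Of 13 tested markers, 8 passed as higher in untreated cells than in the control siRNA, among them the lysozyme Lyz2 (log2 ratio 1.70), the macrophage gene Aif1 (1.40), the adaptor Tyrobp (1.34) and the leukocyte actin-binding coronin Coro1a (1.24). Of all genes, 0.431% passed as higher in untreated cells. After endoglin siRNA 1 of 13 passed, or 7.69%, near the 8.11% of all genes. Between endoglin siRNA and untreated cells 1 of 13 passed in limma, as lower, against 0.0862% of all genes. At an unadjusted p under 0.05 there were 8 of 13, against 8.22% of all genes. The medians of the 13 markers were 0.91 and 1.21 on the untreated arrays and 0.15 and -0.03 on the endoglin siRNA arrays. Endoglin siRNA minus untreated, the median of the list was -0.97. Tmsb4x differed by 0.32, Tmsb10 by 0.00, Cfl1 by -0.06, Pfn1 by -0.16 and Actb by -0.19. The intervals of all members but Tmsb4x include 0. In untreated cells against the control siRNA the list median was 0.99. The members had 0.97 (Tmsb4x), 0.67 (Actb), -0.06 (Tmsb10), -0.26 (Pfn1) and -0.38 (Cfl1). The part of leukocyte RNA in the ratios of the members was not tested. The medians of the 12 stellate markers were 0.19 and 0.36 in untreated cells and 0.18 and 0.19 after endoglin siRNA, but the list went both ways. After endoglin siRNA 3 of the 12 rose against the control siRNA, the stellate globin Cygb (0.76), the collagen Col3a1 (0.72) and the intermediate filament Vim (0.36), and 2 fell, the collagen Col1a1 (-0.89) and the intermediate filament Des (-0.61), or 41.7% of the list against 8.11% of all genes. In untreated cells 3 rose and 0 fell in limma (8 of the 12 at an unadjusted p under 0.05), and between the groups 0 passed in limma (1 at an unadjusted p under 0.05). In such bulk samples fewer cells of a type and less RNA per cell cannot be told apart.

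**Figure D4:**
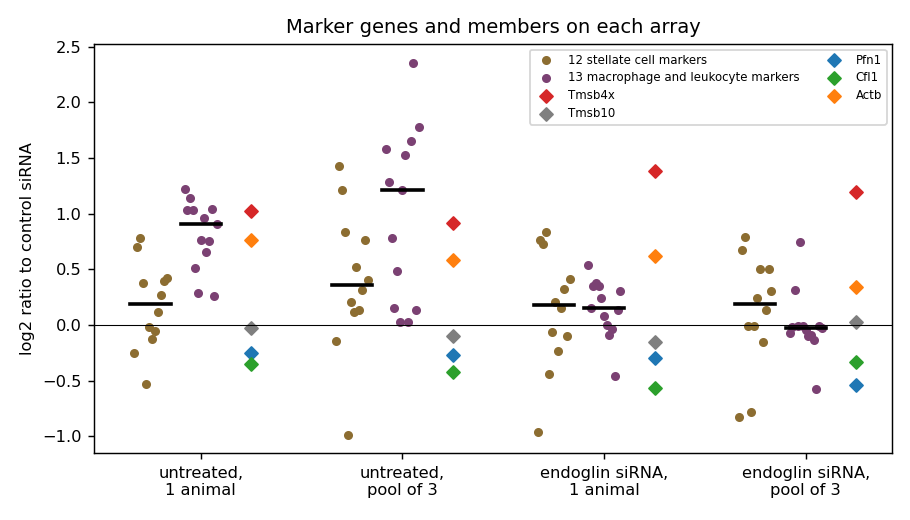
Log2 ratio to the control siRNA (y axis) of 12 stellate cell markers, 13 macrophage and leukocyte markers and the 5 members on each array (x axis). Circles are genes, lines are list medians and diamonds are members. The macrophage medians are 0.91 and 1.21 on the untreated arrays and 0.15 and -0.03 on the endoglin siRNA arrays. On the latter the mean of Tmsb4x is higher and those of Actb, Pfn1 and Cfl1 are lower.

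The rest of the actin network was read from a list of 90 genes in 9 roles, of which 73 were tested. Without the 5 members, 2 of 68 genes rose and 13 fell after endoglin siRNA against the control siRNA (22.1%), while 8.11% of all genes passed, 5.25% as higher and 2.86% as lower. At an unadjusted p under 0.05 these were 30 of the 68 and 23.1% of all genes. The shares were not matched for brightness. On the endoglin siRNA pool array 16759 dim genes had log2 ratios from -0.03 to 0.07 between the 10th and 90th percentiles. Most of the network genes were brighter than that, and the part of brightness in the shares was not tested. The median log2 ratio of the 68 was -0.06, against 0.02 for all genes. In untreated cells against the control siRNA 0 of the 68 passed in limma (24 at an unadjusted p under 0.05), where 0.701% of all genes did (0.431% higher, 0.27% lower; 13.6% at an unadjusted p under 0.05). Between endoglin siRNA and untreated cells 0 of the 68 passed in limma (12 at an unadjusted p under 0.05). With the log ratios of Feature Extraction, 0 of the 68 passed after endoglin siRNA in limma (31 at an unadjusted p under 0.05), and all 15 that had passed kept their sign. With median centring 4 of the 15 kept their sign, and 0 passed in limma (30 of the 68 at an unadjusted p under 0.05).

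Among the actins, Actg1, the other cytoplasmic form beside Actb, had a mean log2 ratio of 0.35 in untreated cells and 0.18 after endoglin siRNA, and did not pass. Its brightness percentile was 99.9. Its ratios were 0.50 (1 animal) and 0.21 (pool) in untreated cells and 0.28 and 0.08 after endoglin siRNA, the same order of the 4 arrays as for Actb. The skeletal muscle actin Acta1 fell after endoglin siRNA (-0.47 ± 0.11, SE), and the enteric smooth muscle actin Actg2 had -0.33. Acta2, the smooth muscle actin that marks myofibroblasts, was not found by name among the probes.

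Of 8 other tested genes that bind or recycle monomers, 1 rose and 2 fell after endoglin siRNA. The genes that fell, in the direction of the Pfn1 and Cfl1 ratios, were Wdr1, which helps cofilin take filaments apart (-0.46 ± 0.07, SE), and Cap1, which recharges cofilin-bound monomers (-0.40 ± 0.07, SE). Wdr1 had 2 probes, which gave -0.46 each. Mtss1, a monomer-binding membrane protein, rose (0.28), but its other probe gave 0.05. The muscle cofilin Cfl2 (0.00) and destrin, Dstn (-0.19), did not pass, and neither did Pfn2 (-0.37). Of 6 tested cofilin kinases and phosphatases, 0 passed in limma (0 at an unadjusted p under 0.05), with log2 ratios from -0.09 to 0.13.

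Among genes that build filaments, 1 of 9 subunits of the Arp2/3 complex, which nucleates branches, rose (Arpc3, 0.31) and 2 fell (Arpc5l, -0.56, and Arpc1b, -0.47). Of 9 nucleation promoting factors and formins 0 passed in limma (2 at an unadjusted p under 0.05), and of 12 capping and severing proteins the capping subunit Capzb fell (-0.42). The share was highest among the cross-linkers, where 5 of 8 fell (62.5%), among them the filamins Flnc (-1.53) and Flna (-0.45) and the alpha-actinins Actn4 (-0.72) and Actn1 (-0.45). The value of Flnc rested on 1 animal, with -2.34 against -0.72 for the pool. Of 9 tropomyosins and side-binding proteins, the calponin Cnn1 (-1.51; -2.06 and -0.97) and the transgelin Tagln2 (-0.33) fell. Srf (-0.11) and its actin-regulated cofactor Mkl1 (-0.28) did not pass. The other Srf probes gave -0.58, -0.08 and -0.11 after endoglin siRNA, and the other Mkl1 probe gave -0.14.

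**Figure D5:**
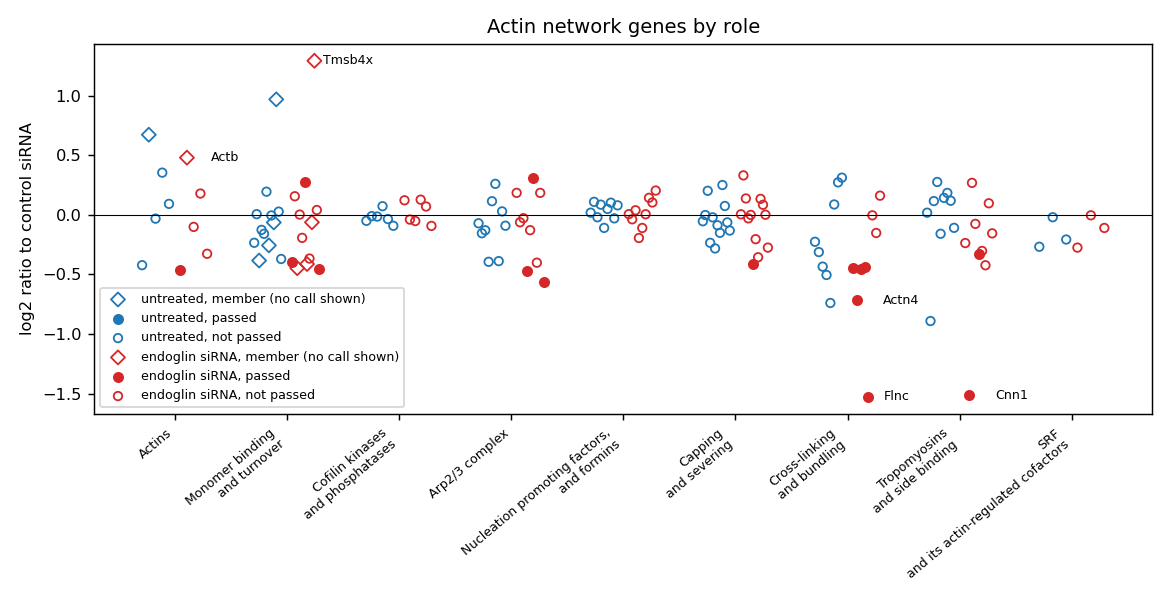
Log2 ratio to the control siRNA (y axis, mean of 2 arrays) of the 73 tested actin network genes by role (x axis), in untreated cells (blue) and after endoglin siRNA (red). Each circle is a gene, filled circles passed an adjusted p of 0.05, and diamonds are the 5 members, shown without a call; 13 of the 15 filled circles lie below 0, all of them after endoglin siRNA.

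Of the 15 network genes other than members that passed after endoglin siRNA, 7 passed without the endoglin siRNA array of 1 animal, 13 without the endoglin siRNA pool and 10 without either untreated array. Where an array was left out, the spread came from the group that kept 2 arrays, and the lone array was assumed to vary likewise. Leaving out an untreated array left the log2 ratios after endoglin siRNA as they were.

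Likeness of pattern was measured as the Euclidean distance between log2 ratios over the 4 arrays. Among the genes nearest to Tmsb4x were the ribosomal gene Rps23 (0.65) and Tceal9 (0.66), both at brightness percentiles of 99.7 or above; these distances were larger than those named for the other members. Nearest to Actb were the ribosomal protein genes Rpl41 (0.21) and Rpl35 (0.22) and Lrrn3 (0.28). Pfn1 had Atp8b1 (0.13), Tmed3 (0.14) and the capping subunit Capzb (0.15). Cfl1 had Atf6b (0.04), Fkbp8 (0.05) and Septin6 (0.08), and Tmsb10 had Ilrun (0.03), Plcd1 (0.03) and Sdhb (0.04). The other members were not among the 3 nearest genes of any member.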

How the data were processed

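Per the file headers, the authors took scanner intensity values from Agilent Feature Extraction (version 9.5.1.1); its deposited log10 ratios and the authors' value table of log10 ratios served as alternatives. The value table was turned on both untreated arrays, where its correlation with the scanner ratios was -1. Background was corrected by normexp (offset 50) and log2 ratios were normalized within arrays by loess (span 0.3, 1639 control spots at weight 0) in limma 3.58.1 and R 4.3.3. Outlier spots (189 to 289 an array) were left out and spots averaged per probe. A probe was kept if 2 or more arrays had it well above background in either dye, and the brightest probe stood for a gene. Names were updated with RefSeq (GRCr8): 6608 genes matched by accession, 3231 by symbol, 2273 by synonym, and 13413 kept the array's name. The means of 2 groups were fitted to all 25525 genes (prior degrees of freedom 5.25), with Benjamini-Hochberg adjustment at 0.05 and SEs from the moderated fit; the scripts were tested on simulated data. All 4 arrays shared 1 slide and scan. Control siRNA RNA was only the other dye, so p-values cover spread between ratios, which may be technical; the number of arrays limits precision. Members and lists were chosen with earlier results of these data known. Named were the members, endoglin, the network genes that passed and, as role examples, others chosen after their values were seen; 2 genes that met these rules are not reported here.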

Additional observations from a re-analysis of the deposited data

How the results depend on the processing

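Tmsb4x and Actb kept ratios above 0 under all 16 alternatives, and Pfn1 and Cfl1 below 0 except with median centring after endoglin siRNA (0.86 and 0.55). Several of these alternatives could not change a ratio, and the directions were known when the genes were chosen. Tmsb4x after endoglin siRNA stayed at 1.29 without the dim filter, with outlier spots kept, with the replicate block and without an untreated array. The deposited table repeats the Feature Extraction ratios. Counts of calls depended on the processing. Against the control siRNA, 2070 genes passed after endoglin siRNA, 179 in untreated cells, and 22 passed between these groups. These became 4503, 510 and 170 without background correction. They became 4154, 461 and 204 when only 10 spots far below background, of 45018 on an array, were left out of normexp. That alternative was chosen after seeing the data, like the loess span of 0.1. They were 0 in limma in all 3 comparisons with Feature Extraction log ratios (7107, 3333 and 2774 at an unadjusted p under 0.05), median centring (6180, 73 and 259), scaling between arrays (1420, 580 and 352) and the deposited table (7103, 3333 and 2770). Without a filter on dim probes 360 and 47 passed in untreated cells and between the groups. Leaving out 1 array gave 882 to 2671, 0 to 755 and 0 to 429.

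Of the 73 network genes, members included although their ratios to the control siRNA served to choose them, 19, 2 and 0 passed. These counts were 30, 10 and 2 without background correction and 29, 10 and 2 without the spots far below background; in untreated cells they were 1 with the smaller span and 5 without the dim filter. They were 0 with Feature Extraction log ratios, median centring, scaling and the deposited table (34, 33, 9 and 34 after endoglin siRNA, and 17, 1, 5 and 17 in untreated cells, at an unadjusted p under 0.05 in limma). Leaving out 1 array gave 11 to 23, 0 to 10 and 0 to 2. The median of the 5 members was -0.06 in all 3 comparisons. It became 1.23, 0.18 and 0.95 with median centring, -0.13 in untreated cells with the smaller span and 0.087 between the groups with scaling. Leaving out 1 array gave -0.16 to 0.03, -0.10 to -0.03 and -0.10 to 0.05. Median centring moved the median of all genes to 0.34, 0.35, -0.16 and 0.25 on single arrays (untreated 1 animal, endoglin siRNA 1 animal, untreated pool, endoglin siRNA pool). With the RNA source as a replicate block, 3914, 1006 and 258 genes passed, and 13 network genes in untreated cells. The 2 sources deviated together over genes (correlation 0.29). The labels do not say whether arrays of 1 source shared animals or control RNA, so the block assumes a pairing that they do not give. The cause of these shifts was not tested.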
